A study of Rattus norvegicus with 7 samples.

Results

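The Dnaj genes encode the J-domain cochaperones of the Hsp40 family. They were taken here by symbol, as every gene named Dnaj followed by the class letter a, b or c and a number, and 43 of the 17147 genes listed carried such a symbol. Class a had 4 members, class b 13 and class c 26. The cells were rMSCs, primary mesenchymal stem cells from rat bone marrow, isolated per the methods from a male Sprague–Dawley rat of 6 weeks. They had been on their substrate for 4 h, after 20000 cells were seeded on films 16 mm in diameter that had been sterilised with ethylene oxide, or on culture plastic without a film. ISB-P was the film of a polycaprolactone-polyurethane copolymer containing propoxylated isosorbide, PCL the film of polycaprolactone and TCP the tissue culture plate. RNA of 3 ISB-P libraries, 3 PCL libraries and 1 TCP library was compared, and the labels name no genetic change or added agent in any group. Nothing in the labels says that the libraries came from separate animals or cultures, so p-values measure the spread between these libraries, which may be technical. The comparison of ISB-P with PCL addresses which genes differ between the 2 polymers while cells attach, and TCP gives the level on ordinary culture plastic.

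A J-domain protein binds an Hsp70 chaperone and sets off its ATP hydrolysis, which locks the Hsp70 onto an unfolded client. Nucleotide exchange factors then release ADP and the client, and the cycle begins again. Class a members carry a zinc-binding cysteine repeat and a glycine-rich stretch beside the J domain, class b members lack the cysteine repeat, and class c members share the J domain alone. Many class c members serve 1 place or task, such as the mitochondrial import motor, the spliceosome or the uncoating of clathrin vesicles. Some members, Dnajb1 foremost, are classic heat shock genes.

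Values were FPKM, which scale the fragments of a gene for its length and for the size of the library, so that levels of different genes can be set side by side. They summed to between 539393 and 660124 in a library, and the number of reads behind them is unknown. Of the 8 mesenchymal markers examined (Cd44, Thy1, Nt5e, Eng, Itgb1, Col1a1, Vim and Pdgfrb), 8 were at 1 FPKM or more in all 7 libraries. Their levels moved with the groups in part: Pdgfrb was at 154 to 177 FPKM on PCL and 86.6 to 110 on ISB-P (limma p adjusted over all tested genes = 0.051, and 1.41e-04 in a fit blocked by replicate number), and Col1a1 was at 10406 FPKM in the TCP library and 3868 to 6058 in the film libraries. The erythroid markers Hba2 and Hbb were at 0 in all of them, and 4 endothelial markers summed to 0.565 FPKM or less. The 5 leukocyte markers Ptprc, Cd68, Cd74, Laptm5 and Lyz2 summed to 97.4 FPKM in the TCP library, to between 25.2 and 32.8 on PCL and to between 28.7 and 35.3 on ISB-P. The TCP library therefore stood apart in Col1a1 and the leukocyte markers, and the part of these markers in any difference between groups was not tested. In bulk RNA, fewer cells of a kind and less RNA per cell cannot be told apart.

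The rMSCs expressed most of the family. Over the 6 film libraries, 3 members averaged 100 FPKM or more, 22 lay between 10 and 100, 13 between 1 and 10, and 5 below 1. The highest were Dnaja1, Dnaja2 and Dnajc10. The 5 lowest, Dnajb7, Dnajb8, Dnajb13, Dnajc5b and Dnajc5g, were at most at 0.198 FPKM in a library, and Dnajc5b was listed at 0 in all 7; most of these are known mainly from testis. The other 38 had at least 1 FPKM in at least 3 film libraries and were tested. Dnajc6 lay just inside this limit and passed through the ISB-P libraries alone, and that highest value of the members left outside it was of Dnajb7 in ISB-P replicate 3.

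The summed level of the 43 members was 897 FPKM in the TCP library. It was 972, 1081 and 1337 FPKM across replicates 1, 2 and 3 of PCL, compared with 1527, 1686 and 2506 FPKM across those of ISB-P. The lowest ISB-P library was thus above the highest PCL library. Most of that gap lay in 2 genes, since the sum without Dnaja1 and Dnajb1 lay within 830–1099 FPKM on PCL against 945–1392 on ISB-P, which overlapped. Dnaja1 alone made up 11.2% of the family in the TCP library, 13.1% ± 2.15 (SD, n = 3) on PCL and 33.9% ± 5.12 (SD, n = 3) on ISB-P. Class c went the other way as a share, from 49.7% ± 0.80 (SD, n = 3) on PCL to 32.3% ± 1.77 (SD, n = 3) on ISB-P, although its summed level was 562 ± 89.2 FPKM on PCL and 610 ± 137 on ISB-P.

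**Figure D1:**
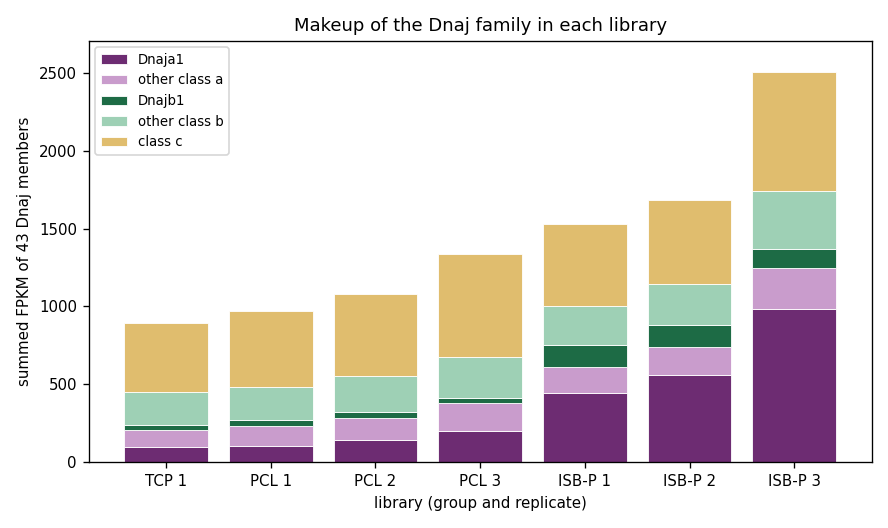
Summed FPKM of the 43 Dnaj members in each library (horizontal axis, group and replicate), stacked as Dnaja1, the other class a members, Dnajb1, the other class b members and class c. The total was 897 FPKM on TCP, 972 to 1337 on PCL and 1527 to 2506 on ISB-P, and the Dnaja1 block was taller in each ISB-P library than in any other.

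To ask which members differed between the films, all 9467 genes that passed the limit were compared with limma on log2(FPKM + 1), and p-values were adjusted over all of them by the Benjamini-Hochberg method. Of the 38 members tested, 2 passed as higher on ISB-P, Dnaja1 and Dnajb1, where 1.10% of all tested genes did. The number lower on ISB-P was 0 in this limma test, where 0.623% of all tested genes passed. At an unadjusted p under 0.05, 6 members were higher (5.51% of all tested genes) and 1 was lower (6.58%). Same-numbered libraries of the 2 films deviated together, and once the replicate number entered the fit as a block, limma called 8 members higher and 1 lower, against 13.0% and 11.4% of all tested genes. Every ISB-P library was above every PCL library in 8 members (8.17% of all tested genes) and below in 2 (9.54%). ISB-P was above PCL within all 3 same-numbered pairs in 19 members (30.5% of all tested genes) and below within all 3 in 6 (27.7%). The median log2 fold change of the members was 0.13, beside 0.02 over all tested genes. Above 0 were 29 of the 38 members and 5005 of the 9467 tested genes.

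**Figure D2:**
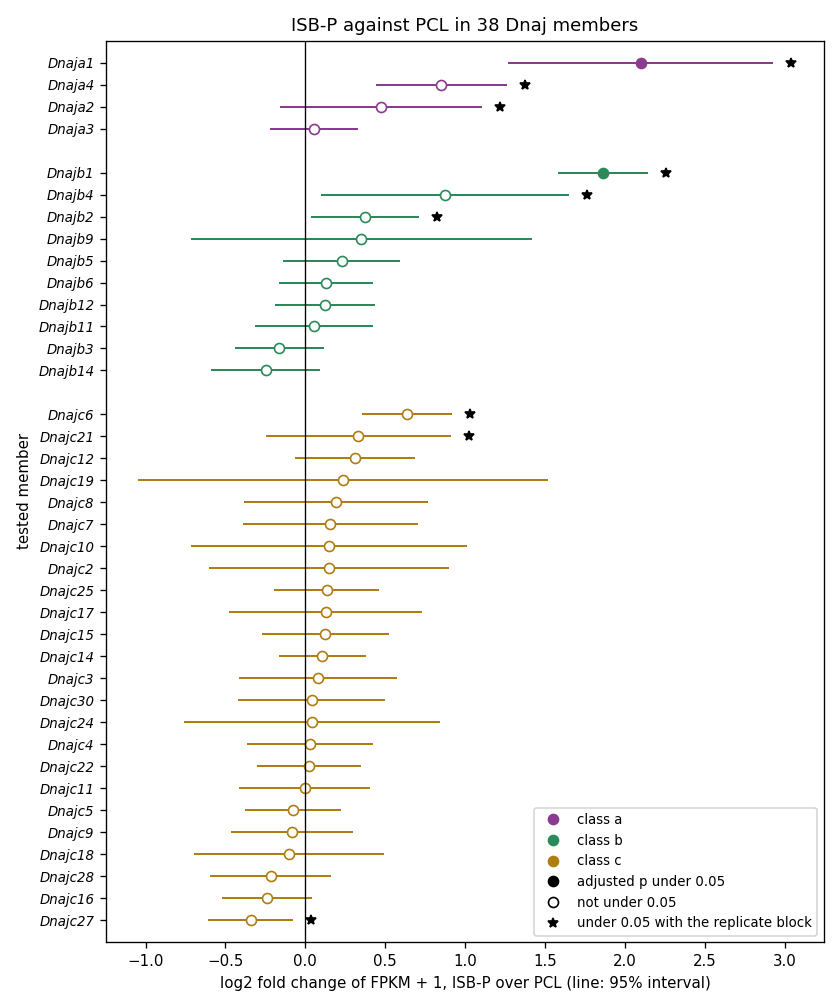
Log2 fold change of FPKM + 1, ISB-P over PCL, for the 38 tested members grouped by class (vertical axis), with 95% intervals from limma without the replicate block. Filled points (Dnaja1 and Dnajb1) had an adjusted p under 0.05, and stars mark the 9 members with an adjusted p under 0.05 when the replicate number was a block.

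Dnaja1, a general cytosolic partner of Hsp70, was at 101 FPKM in the TCP library, at 106, 142 and 204 FPKM across replicates 1, 2 and 3 of PCL, compared with 447, 558 and 987 FPKM across those of ISB-P. It was the most abundant member in each of the 7 libraries, and the lowest ISB-P library was above the highest PCL library. Dnaja1 was 4.20, 3.92 and 4.85 times as high on ISB-P within replicates 1, 2 and 3. The log2 fold change was 2.10 with a standard error of 0.35 (limma adjusted p = 0.0426, and 8.59e-07 with the replicate block). Without the block the call rested on single libraries: limma's adjusted p became 0.133 without PCL replicate 1, 0.216 without PCL replicate 2, 0.0861 without PCL replicate 3 and 0.190 without ISB-P replicate 2, while over all 6 such fits the log2 fold change lay between 1.77 and 2.34. The adjusted p was 0.0556 with no lower limit on FPKM and 0.0544 with a limit of 5 FPKM. RefSeq names 4 pseudogenes after Dnaja1, so reads may have been shared between copies and its level is uncertain to that extent.

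The other class a members differed less. Dnaja4, another cytosolic cochaperone, was at 9.45 FPKM in the TCP library, at 9.52, 7.21 and 8.88 FPKM on PCL and at 19.5, 15.2 and 14.0 FPKM on ISB-P in replicates 1, 2 and 3. The films did not overlap, and the log2 fold change of Dnaja4 was 0.85 with an interval from 0.45 to 1.25 (limma adjusted p = 0.0723, and 5.43e-04 with the replicate block). Dnaja2, the second general cytosolic member of the class, was at 68.9 FPKM in the TCP library, at 85.6, 105 and 135 FPKM on PCL and at 115, 136 and 209 FPKM on ISB-P in the same replicates. The films overlapped for Dnaja2, but ISB-P was higher within each pair, by 1.34, 1.30 and 1.55 times (log2 fold change 0.47, limma adjusted p = 0.592, and 0.00271 with the replicate block). Dnaja3, the mitochondrial member, was at 29.0 FPKM in the TCP library, at 31.4, 30.9 and 32.7 FPKM on PCL and at 33.0, 31.7 and 34.0 FPKM on ISB-P. These values overlapped, and the interval of its log2 fold change ran from -0.21 to 0.32.

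Dnajb1, the stress-inducible Hsp40 after which the family is named, was at 34.2 FPKM in the TCP library, at 36.0, 37.8 and 34.3 FPKM across replicates 1, 2 and 3 of PCL, compared with 136, 138 and 127 FPKM across those of ISB-P. The 3 ISB-P libraries lay close together and far above the other 4. Dnajb1 was 3.78, 3.66 and 3.70 times as high on ISB-P within the 3 pairs. The log2 fold change was 1.86 with an interval from 1.59 to 2.14 (limma adjusted p = 0.0015, and 8.59e-07 with the replicate block). By level it ranked 10 among the 43 members in the TCP library and between 9 and 12 on PCL, and between 2 and 4 on ISB-P. The call held in limma without any single library and was lost only when replicate 2 of both films was left out (adjusted p = 0.438), a fit on 4 libraries that called no member.

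Dnajb4, a close relative of Dnajb1, was at 47.0 FPKM in the TCP library, at 32.4, 43.8 and 59.9 FPKM on PCL and at 61.1, 70.3 and 125 FPKM on ISB-P in replicates 1, 2 and 3. The lowest ISB-P library was only just above the highest PCL library, and within pairs ISB-P was 1.89, 1.60 and 2.09 times as high. Its log2 fold change was 0.87 with an interval from 0.10 to 1.64 (limma adjusted p = 0.333, and 2.51e-04 with the replicate block). Dnajb2, which links Hsp70 clients to the ubiquitin system, was at 25.6 FPKM in the TCP library, at 21.2, 20.4 and 19.5 FPKM on PCL and at 30.8, 26.2 and 23.5 FPKM on ISB-P. The films did not overlap, the TCP library fell inside the ISB-P range, and the log2 fold change of Dnajb2 was 0.37 (limma adjusted p = 0.337, and 0.0121 with the replicate block). Dnajb6, which restrains protein aggregation, lay within 36.0–38.3 FPKM on PCL against 38.5–44.7 on ISB-P, and Dnajb5 within 5.95–8.10 on PCL against 7.28–9.05 on ISB-P. RefSeq names 10 pseudogenes after Dnajb6, which leaves its level uncertain in the same way as that of Dnaja1.

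**Figure D3:**
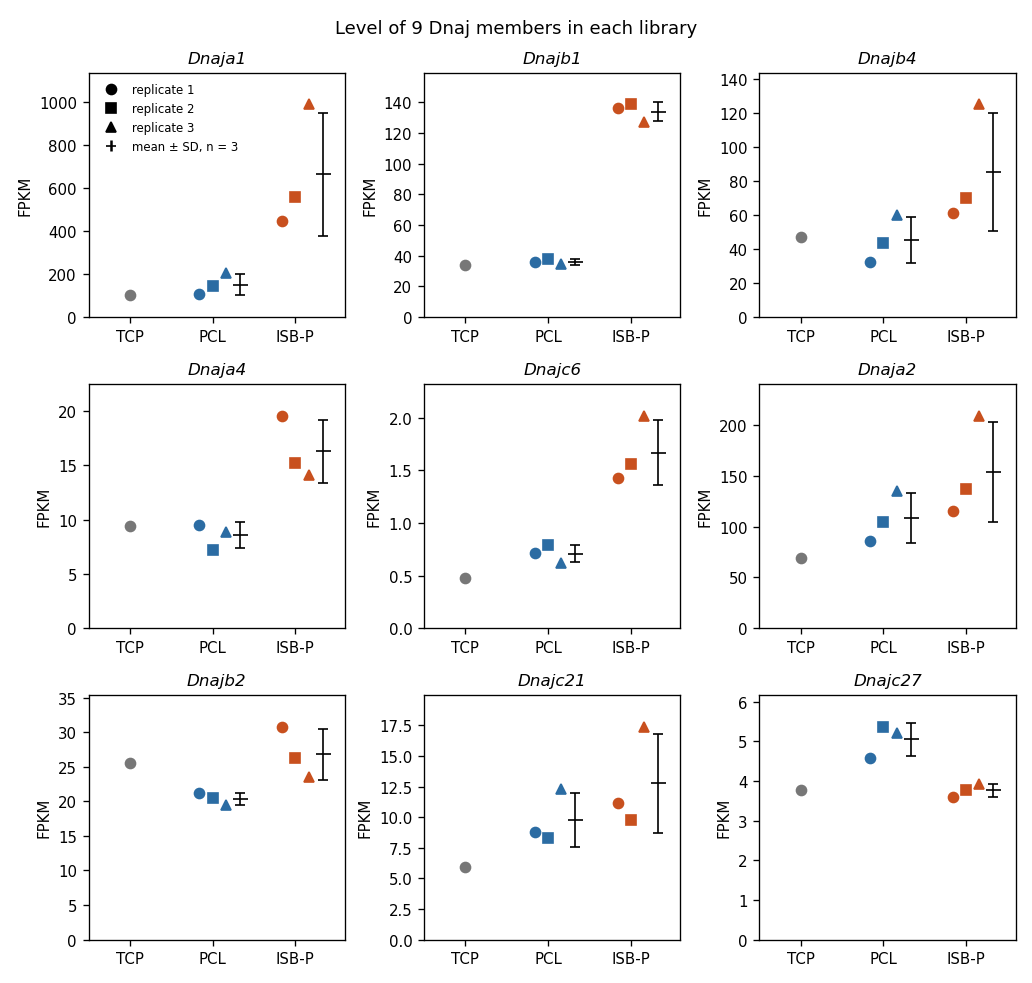
FPKM of 9 Dnaj members in each library, with TCP, PCL and ISB-P on the horizontal axis, the replicate as the shape of the point and the mean ± SD of each film (n = 3) beside it. Shown are the members with an adjusted p under 0.05 with or without the replicate block. Dnaja1 and Dnajb1 had wide gaps between the films, Dnaja2 and Dnajc21 overlapped, and Dnajc27 was lower on ISB-P (3.60 to 3.92 FPKM) than on PCL (4.58 to 5.37 FPKM).

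The members were also grouped by place in the cell, from general knowledge. The 9 members listed as cytosolic and nuclear (Dnaja1, Dnaja2, Dnaja4, Dnajb1, Dnajb2, Dnajb4, Dnajb5, Dnajb6 and Dnajc7) had log2 fold changes between 0.13 and 2.10 with a median of 0.47. Dnajc9 (-0.08), Dnajc12 (0.31), Dnajc24 (0.04) and Dnajc27 (-0.34) were among the members given no place, so the list need not be complete. All 9 were above 0 with the values as deposited, as were 5005 of the 9467 tested genes. The 9 stayed above 0 under each of the 3 other scalings tried, which rescale the same libraries. Of these 9, limma called 2 higher, and 6 (66.7%) with the replicate block. The shares of all tested genes were 1.10%, and 13.0% with the block. The 6 tested members of the endoplasmic reticulum had a median of 0.10 and a range from -0.25 to 0.35, and limma called 0 of them with or without the block (0 at an unadjusted p under 0.05). The 5 mitochondrial members had a median of 0.05 and a range from -0.0033 to 0.24, and limma again called 0 either way (0 at an unadjusted p under 0.05). With the block limma called 13.0% of all tested genes higher and 11.4% lower, so 0 calls in groups this small say little. Whether these groups of members differ from each other was not tested.

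In the endoplasmic reticulum, Dnajc10, which reduces disulfide bonds, was at 67.6 FPKM in the TCP library, at 74.0, 111 and 142 FPKM on PCL and at 78.9, 108 and 187 FPKM on ISB-P in replicates 1, 2 and 3. Replicates of a film thus differed more than the films did. Dnajb11, which binds unfolded clients of the lumen, was at 47.5 FPKM in the TCP library, at 65.5, 65.7 and 75.1 FPKM on PCL and at 65.9, 64.9 and 84.9 FPKM on ISB-P. Dnajb12, anchored in the membrane, was at 20.4 FPKM in the TCP library, at 22.1, 20.7 and 20.9 FPKM on PCL and at 25.4, 23.9 and 20.5 FPKM on ISB-P. All 3 overlapped between the films. Dnajb9, a target of the unfolded protein response, lay within 13.9–29.7 FPKM on PCL against 16.4–52.4 on ISB-P, and Dnajc3, a lumenal member induced by the same response, within 52.3–72.4 FPKM on PCL against 54.2–80.1 on ISB-P. Dnajb14, a membrane member, was lower on ISB-P within all 3 pairs, at 0.84, 0.85 and 0.79 times the PCL value, with a log2 fold change of -0.25 (limma adjusted p = 0.612, and 0.0554 with the replicate block).

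Among the mitochondrial members, Dnajc19 of the import motor lay within 5.07–14.8 FPKM on PCL against 5.60–22.5 on ISB-P. Its interval, from -1.04 to 1.51 on the log2 scale, was the widest of the 38. Dnajc15 lay within 30.3–40.8 FPKM on PCL against 35.2–45.1 on ISB-P, and Dnajc30 within 6.40–7.61 FPKM on PCL against 5.78–9.86 on ISB-P. Dnajc11 had the smallest difference of class c: it was at 23.6 FPKM in the TCP library, at 28.6, 22.0 and 23.8 FPKM on PCL and at 29.5, 21.5 and 23.4 FPKM on ISB-P. The interval of the Dnajc11 log2 fold change ran from -0.41 to 0.40. Dnajc22, which was not placed among the mitochondrial members, had the next smallest difference of class c. Dnajc22 was at 6.70 FPKM in the TCP library, at 7.09, 6.19 and 6.37 FPKM on PCL and at 7.70, 6.63 and 5.77 FPKM on ISB-P, with an interval from -0.30 to 0.34.

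Of the 24 class c members tested, limma called 0 (1 higher and 1 lower at an unadjusted p under 0.05), and 2 higher (8.33% of the class) and 1 lower (4.17%) with the replicate block. With the block the shares of all tested genes were 13.0% and 11.4%, and counts of 2 and 1 in 24 members say little beside them. Dnajc6, or auxilin, which brings Hsc70 to clathrin coats for uncoating, was at 0.48 FPKM in the TCP library, at 0.71, 0.79 and 0.62 FPKM on PCL and at 1.43, 1.55 and 2.02 FPKM on ISB-P in replicates 1, 2 and 3. Each ISB-P library was above each other library, though all values were low. The log2 fold change of Dnajc6 was 0.64 (limma adjusted p = 0.054, and 0.00533 with the replicate block), a scale on which the added 1 shrinks the change of so low a gene. With 0.1 added in its place the log2 fold change was 1.12 (limma adjusted p = 0.0491), and with no lower limit on FPKM limma also called Dnajc6 (adjusted p = 0.046). Because Dnajc6 entered the test through ISB-P alone, its difference is partly fixed by that limit.

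Dnajc21, which acts in the making of the large ribosomal subunit, was at 5.89 FPKM in the TCP library, at 8.80, 8.28 and 12.3 FPKM on PCL and at 11.2, 9.78 and 17.4 FPKM on ISB-P in replicates 1, 2 and 3. The films overlapped, while within pairs ISB-P was 1.27, 1.18 and 1.41 times as high (limma adjusted p = 0.751, and 0.0232 with the replicate block). Dnajc2, which sits on the ribosome, lay within 19.1–33.4 FPKM on PCL against 20.2–39.2 on ISB-P. Dnajc27, a Rab-like GTPase joined to a J domain, was the 1 member lower on ISB-P with the block. It was at 3.78 FPKM in the TCP library, at 4.58, 5.37 and 5.20 FPKM on PCL and at 3.60, 3.77 and 3.92 FPKM on ISB-P. The TCP library fell inside the ISB-P range and below PCL, and the Dnajc27 log2 fold change was -0.34 (limma adjusted p = 0.244, and 0.0226 with the replicate block). In RefSeq the gene overlaps Adcy3, and whether the counting used strand is not given in the sources used here. Dnajc16, which shares its locus with Agmat, also had no overlap between the films, at 6.36 to 7.13 FPKM on PCL and 5.17 to 6.09 on ISB-P (log2 fold change -0.24, limma adjusted p = 0.505, and 0.0935 with the replicate block).

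The remaining class c members overlapped between the films, apart from Dnajc14 (17.6 to 18.9 FPKM on PCL and 19.2 to 20.1 on ISB-P). Dnajc7, which binds Hsp70 and Hsp90 at once, lay within 47.7–61.5 FPKM on PCL against 47.1–80.2 on ISB-P. The spliceosome members were Dnajc8, within 50.4–73.2 FPKM on PCL against 52.1–87.3 on ISB-P, and Dnajc17, within 3.49–5.23 on PCL against 3.58–7.46 on ISB-P. Dnajc5, the cysteine string protein of secretory vesicles, lay within 29.2–33.7 FPKM on PCL against 27.4–30.2 on ISB-P. Dnajc9, a histone chaperone, lay within 29.0–36.8 FPKM on PCL against 27.2–35.9 on ISB-P. Dnajc24, needed to make diphthamide, lay within 6.19–11.4 FPKM on PCL against 5.57–14.1 on ISB-P. Dnajc12, a cochaperone of aromatic amino acid hydroxylases, lay within 2.28–3.17 FPKM on PCL against 3.09–4.45 on ISB-P, with 4.68 FPKM in the TCP library. The other tested members were Dnajc18 (14.3 to 24.0 FPKM over the film libraries), Dnajc25 (25.2 to 32.1), Dnajc4 (4.23 to 6.23), Dnajc28 (0.884 to 1.82) and, in class b, Dnajb3 (1.13 to 1.86). None of these 5 had an adjusted p under 0.05 in limma with or without the block.

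The order of the replicates was counted in the members and in all tested genes. Replicate 3 was the highest of the 3 on both films in 19 of the 38 members, as it was in 43.1% of all tested genes. Replicate 1 was the highest on both films in 10 members, as in 29.3% of all tested genes. It was the lowest on both films in 13 members (39.8% of all tested genes). Replicate 3 was the lowest on both films in 3 of the 38 members, a smaller share than the 24.8% of all tested genes. In 9 members (Dnaja1, Dnaja2, Dnajb4, Dnajb9, Dnajc2, Dnajc10, Dnajc18, Dnajc19 and Dnajc24) replicate 3 was more than 1.5 times replicate 1 on both films. The ratio was 3.19 on ISB-P and 2.13 on PCL for Dnajb9, and 4.02 and 2.91 for Dnajc19. Dnajb1 went the other way by little, at 0.93 on ISB-P and 0.95 on PCL. In 23 of the 38 members the log2 ratio of replicate 3 to replicate 1 was larger in size on both films than limma's log2 fold change. The ratio was of FPKM and the fold change of FPKM + 1. The added 1 shrinks the fold change of low members, which can raise this count. Shares of all tested genes were not computed for the counts of 9 and 23.

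Because Dnaja1 and Dnajb1 are known heat shock genes, the promoters of the members were searched for heat shock elements, and also for the endoplasmic reticulum stress element of unfolded protein response genes. RefSeq promoters on build GRCr8, from 250 bases before to 50 bases after each start, were found for 33 of the 43 members, and 33469 promoters were searched in all. The 3-unit heat shock element, spelled GAANNTTCNNGAA and read on both strands, was in 0.798% of all promoters and in 1 of the 33, that of Dnaja1. The 2-unit form GAANNTTC, which the 3-unit form contains, was in 8.59% of all promoters and in 5 of the 33, those of Dnaja1, Dnajb1, Dnajb6, Dnajc18 and Dnajc5g. The other 2-unit form, TTCNNGAA, was in 8.77% of all promoters and in those of Dnaja1 and Dnajc27. The stress element, CCAAT and CCACG with 9 bases between, was in 0.0657% of all promoters and in 1 of the 33, that of Dnajc3. The following stretches are shown 5′ to 3′ on the strand of the gene because they hold these matches in the 2 members called higher and in 2 members that were not, with the match in capitals. The first is chr5:60638404-60638433 on the plus strand, which begins at the start of the gene, and the second chr5:60638215-60638244 on the plus strand, before it. The third and the fourth, chr19:41431142-41431171 and chr19:41431112-41431141 on the minus strand, lie just before and just after the start of Dnajb1. The last 2 are chr4:6232145-6232174 on the minus strand and chr15:102432527-102432556 on the plus strand.
Dnaja1, after the start: ggccgggcgGAACTTTCCAGAAcgctcggt
Dnaja1, before the start: agcctctaGAAGATTCtacaaggatcggga
Dnajb1, before the start: cgacgcatcgggaggggcgGAAGGTTCtgg
Dnajb1, after the start: agggctggcgggatctgGAAGCTTCcgccg
Dnajb6, before the start: agctccgaGAATCTTCaggtctgggagacg
Dnajc3, before the start: tccaaagCCAATCAGCGCCAACCACGaccc
Dnajb1 had 2 matches of the 2-unit form within 30 bases of its start, and the single 3-unit match lay in Dnaja1, the member with the largest difference. Dnajb6, Dnajc18 and Dnajc27 held 2-unit matches as well, with log2 fold changes of 0.13, -0.10 and -0.34. Members without a promoter could not be searched, and whether matches go with the differences was not tested. A match describes these letters only, and binding of any factor was not measured.

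Against TCP, each film was compared by the ratio of its mean plus 1 to the single TCP value plus 1, with no test. On ISB-P, 5 members were more than 2-fold above TCP (8.98% of all tested genes) and 0 more than 2-fold below (4.28%). They were Dnaja1 at 6.53-fold, Dnajb1 at 3.83-fold, Dnajc19 at 2.35-fold, Dnaja2 at 2.21-fold and Dnajc21 at 2.0004-fold. On PCL, only Dnajc9 was more than 2-fold above TCP (5.56% of all tested genes), at 2.08-fold, and 0 were more than 2-fold below (3.04%). Dnajc9 was at 15.2 FPKM in the TCP library and between 27.2 and 36.8 FPKM in the 6 film libraries. In RefSeq Dnajc9 overlaps Fam149b1 and Dnajc19 overlaps Fxr1, so their levels carry the limit given for Dnajc27. Dnajb3, Dnajb7, Dnajc7, Dnajc14, Dnajc17 and Dnajc28 also overlap other protein-coding genes. For the members called between the films, the ratio of PCL to TCP was 1.05 for Dnajb1 and 1.49 for Dnaja1, whose 3 PCL libraries were all above TCP. Both comparisons use the same TCP library. Without ISB-P replicate 1 the count above TCP on ISB-P was 11, and without ISB-P replicate 3 it was 2. Shares of all tested genes are not given for either count.

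**Figure D4:**
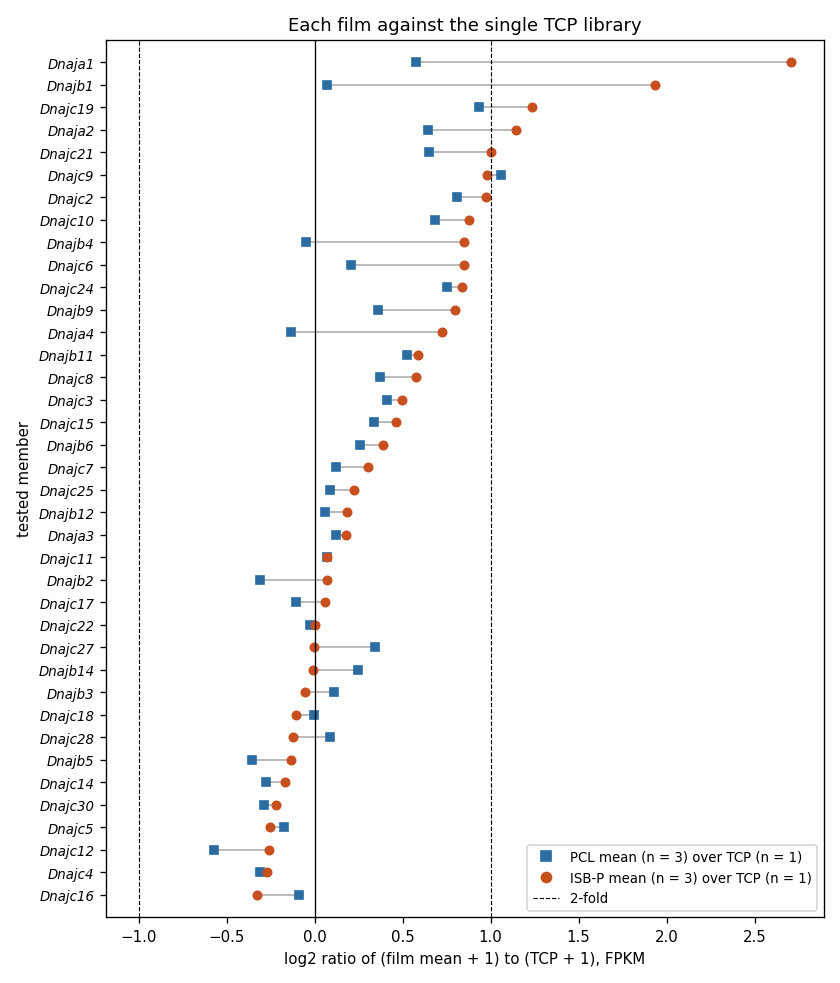
Log2 ratio of the film mean plus 1 to the TCP value plus 1, in FPKM, for the 38 tested members (vertical axis, ordered by ISB-P), with squares for PCL, circles for ISB-P and dashed lines at 2-fold. TCP has 1 library, so no error is drawn for it. Dnaja1 (6.53-fold on ISB-P and 1.49-fold on PCL) and Dnajb1 (3.83-fold and 1.05-fold) had the longest lines between the 2 films.

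The partners of the J-domain proteins were examined next. Of 9 Hsp70 genes tested, limma called 4 higher on ISB-P (Hspa1a, Hspa1b, Hspa1l and Hspa8) and 0 lower. The shares of all tested genes were 1.10% and 0.623%. With the replicate block limma called 5 higher (55.6%) and 1 lower (11.1%), against 13.0% and 11.4% of all tested genes. The lower share was thus near that of all tested genes. Hspa8, the constitutive cytosolic Hsp70, was at 1021 FPKM in the TCP library, at 1191, 1335 and 1478 FPKM on PCL and at 3105, 3351 and 4162 FPKM on ISB-P (log2 fold change 1.40, limma adjusted p = 0.00831). The inducible Hspa1a was at 91.1 FPKM in the TCP library, at 13.4, 10.9 and 10.1 FPKM on PCL and at 954, 646 and 263 FPKM on ISB-P (log2 fold change 5.47, limma adjusted p = 0.00361). Hspa1b was at 17.1 FPKM in the TCP library, at 2.27, 3.00 and 3.12 FPKM on PCL and at 146, 181 and 276 FPKM on ISB-P (log2 fold change 5.69, limma adjusted p = 8.79e-04); Hspa1a and Hspa1b are near-identical copies, so the split of reads between them is uncertain. In ISB-P replicate 3, where Dnaja1 and Dnajb4 were highest, Hspa8 and Hspa1b were also the highest of the 3 and Hspa1a was the lowest. Hspa1l was at 0.49, 0.51 and 0.44 FPKM on PCL and at 3.68, 2.83 and 2.56 FPKM on ISB-P (log2 fold change 1.43, limma adjusted p = 0.00395). It entered the test through the ISB-P libraries alone, so its direction was partly fixed by the limit of 1 FPKM. The Hsp70 of the endoplasmic reticulum, Hspa5, was at 311 ± 62.1 FPKM on PCL and 334 ± 75.4 on ISB-P (SD, n = 3), and limma did not call it with or without the block.

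Set against Hspa8, Dnaja1 was at 9.87% of its level in the TCP library, at 8.92%, 10.7% and 13.8% on PCL and at 14.4%, 16.6% and 23.7% on ISB-P in replicates 1, 2 and 3. Dnajb1 was at 3.35% of Hspa8 in the TCP library, between 2.32% and 3.02% on PCL and between 3.05% and 4.38% on ISB-P. Neither ratio overlapped between the films, although for Dnajb1 the gap was small. Dnaja2 was between 7.19% and 9.12% of Hspa8 on PCL and between 3.70% and 5.02% on ISB-P. The whole family summed to 58.8% to 62.6% of the 9 Hsp70 genes on PCL, to 58.7% in the TCP library and to 32.2% to 45.1% on ISB-P.

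Of the nucleotide exchange factors of Hsp70, 13 were tested. limma called 2 higher on ISB-P, Bag3 (log2 fold change 1.53, adjusted p = 0.0213) and Hsph1 (2.38, adjusted p = 0.00361), and 0 lower. With the replicate block it called 4 higher (30.8%) and 1 lower (7.69%). The shares of all tested genes were 1.10% higher and 0.623% lower, and 13.0% and 11.4% with the block. The median log2 fold change of the 13 exchange factors was 0.00. Of 4 other cofactors, limma called Stip1, which joins Hsp70 to Hsp90, higher (log2 fold change 0.92, adjusted p = 0.022), and 3 of the 4 with the replicate block. Of 3 J-domain genes with other symbols, Sec63, Gak and Hscb, limma called 0 with or without the block (0 at an unadjusted p under 0.05).

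**Figure D5:**
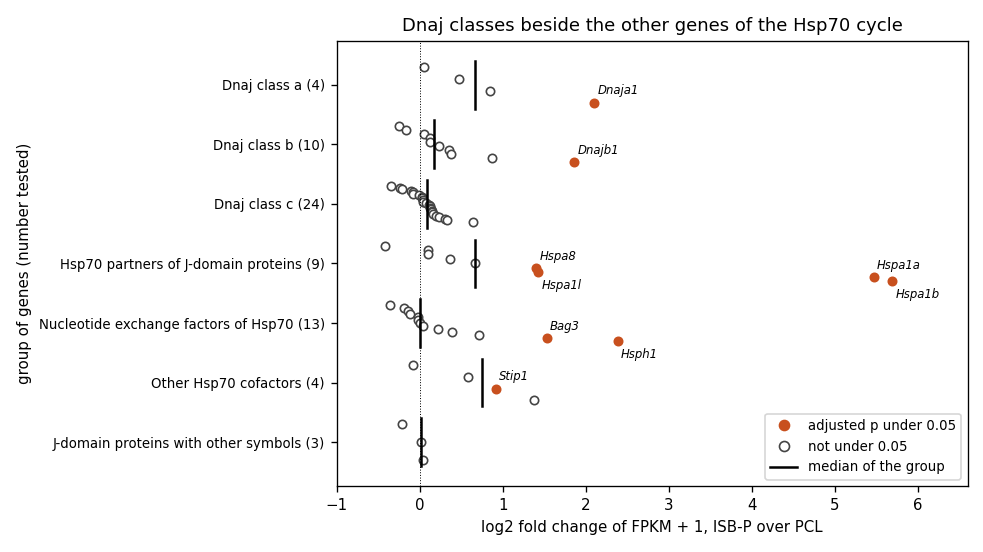
Log2 fold change of FPKM + 1, ISB-P over PCL, for the tested genes of 3 Dnaj classes and 4 lists of other genes of the Hsp70 cycle (vertical axis, number tested in brackets). Filled, named points had an adjusted p under 0.05, and the vertical bar is the median of each group. Dnaja1 and Dnajb1 lie at 2.10 and 1.86, between the constitutive Hspa8 at 1.40 and the inducible Hspa1a at 5.47.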

How the data were processed

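For every library the authors deposited a list of 17147 gene symbols with 1 normalized value each. The values were taken to be FPKM made by the authors before they were deposited, though no source names the unit. The submitters' processing notes list bcl2fastq 2.20.0.422, cutadapt 1.18, TopHat2 2.0.13, Cuffdiff 2.2.1 and build rn5, and the paper names ExDEGA. The annotation and the counting of shared reads are not given in the sources used here. Depth is unknown, so no counting interval is given, and precision rests on 3 libraries a film. The members and gene lists were chosen with earlier results of these data known.

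Values were used as deposited, since low values were not whole multiples of 1 read in most pairs of libraries. The 9467 genes reaching 1 FPKM in 3 or more film libraries were fitted with limma 3.58.1 in R 4.3.3 (trend, two-sided, Benjamini-Hochberg, threshold 0.05) on log2(FPKM + 1), ISB-P and PCL libraries only. Its script was tested on simulated data. For a single member the exact permutation test of 3 against 3 libraries cannot go below 0.1, so it is not printed. Deviations from the film means correlated at 0.887, 0.431 and 0.867 between same-numbered libraries, all over the limit of 0.1. Between differently numbered libraries they correlated at -0.836 to 0.177, and ISB-P replicate 3 with PCL replicate 2 also passed that limit. The replicate numbers of the labels were taken to pair the films, an inference from these same data. Blocked values therefore stand beside the unblocked ones. Values of every library are given for members called with or without the block, the 2 largest and 2 smallest differences of each class and the 3 highest members; of the other lists, called genes are named, and Hspa5 was added after its values were seen. Alternatives were other pseudocounts, filters and scalings, TCP in the fit and libraries left out. Dnajc1 and Dnajc13 were in the planned lists of places in the cell but were not among the 17147 gene symbols, so they could not be analysed. Planned counts of protein motifs were not run. Plots used matplotlib 3.10.9 (Python 3.11.15).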

Additional observations from a re-analysis of the deposited data

How the results depend on the processing

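The 2 higher calls among the members became 1 with a limit of 5 FPKM, where Dnaja1 was lost (adjusted p = 0.0544), became 3 with a pseudocount of 0.1, where Dnajc6 was gained, were Dnajb1 and Dnajc6 with no filter, where Dnaja1 was lost (0.0556), and ranged from 0 to 2 when 1 library or 1 replicate number was left out; the count of 0 came without replicate 2 of both films, chosen after seeing the data like the other fits on 4 libraries. With the replicate block there were 8 higher and 1 lower. With the block and another scaling, also added after seeing the data, there were 8 and 2 (upper quartile), 9 and 1 (quantile) and 7 and 3 (common total). With the block and 4 libraries there were 8, 10 or 13 higher and 0 to 1 lower, on 1 residual degree of freedom. Beyond the main fit and the replicate block, shares of all tested genes are not given here, so these counts cannot be set against them. The members' median log2 fold change was 0.13, was 0.0139 with scaling to a common total, which moved the median of all tested genes to -0.09, and ranged from 0.0312 to 0.167 with 1 library left out. Under that scaling 21 of 38 members were above 0 and 29 above the median of all tested genes; Dnaja3, Dnajb11 and Dnajc3 changed sign with it and with quantile normalization. The 7 calls among other genes of the Hsp70 cycle became 14 with the block and ranged from 3 to 7 with 1 library left out. The 7 were all higher on ISB-P, while the 14 count both directions and include Hspa14 and Bag4, which were lower. The block called 13.0% of all tested genes higher and 11.4% lower.

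Members over 2-fold above TCP on ISB-P numbered 5, 8 with a pseudocount of 0.1, 3 with quantile normalization or a common total, and 2 to 11 with 1 library left out. On PCL the 1 became 2 with a pseudocount of 0.1 and 0 with upper quartile scaling or a common total, and 0 to 2 with 1 library left out. Shares of all tested genes are not given for these alternative counts, and the cause of the shifts was not tested. Among the members the block changed no call other than those given with both p-values above. The unknown depth limits what can be said of members below 1 FPKM.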
